A study of Mus musculus with 11 samples.

Results

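The endothelin and angiotensin systems were followed through 10 genes in the aorta of old mice. They are the peptide genes Edn1 and Agt, the enzyme genes Ece1, Ren1 and Ace, and the receptor genes Ednra, Ednrb, Agtr1a, Agtr1b and Agtr2. All probes carrying one of these names were taken, which gave 11 of the 55681 probes of the array, 1 for each of 9 genes and 2 for Ednrb. RNA of the descending aorta came from male C57BL/6 mice aged 20 months, with 1 mouse per one-color Agilent array. There were 5 mice that had received 1 g/L NaNO3 in the drinking water for 8 weeks and 6 controls. The labels describe the controls as a re-analysis of earlier samples and name no agent for them beyond control, while the methods of the study state an equal concentration of sodium chloride. If the controls were collected at another time, time and treatment cannot be told apart. No genotype other than the strain is given for either group. The comparison asks whether dietary nitrate changed aortic expression of these vasoactive systems in aged mice.

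Endothelin-1 is a constrictor peptide cut from a larger precursor by endothelin converting enzyme and made largely by endothelial cells. Its A receptor sits on smooth muscle and contracts it, while the B receptor on endothelium releases nitric oxide and clears the peptide, and B receptors on smooth muscle contract it. In the other system, renin cuts angiotensinogen to angiotensin I, angiotensin converting enzyme trims this to angiotensin II, and the AT1 receptors pass on constriction. Mice carry the AT1 receptor as a pair of genes, Agtr1a and Agtr1b, and the AT2 receptor, coded by Agtr2, has many effects opposed to AT1.

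In these aortas, 8 of the 10 genes were detected with 9 probes, and the only one of these probes to pass the threshold was the brighter Ednrb probe, lower in nitrate treated mice. The brighter Ednrb probe was 1.22-fold lower (exact permutation P = 0.0563), and the second probe was 1.32-fold lower without passing. The call was lost with slide as a block and without any 1 of 6 mice. Edn1, Ednra, Ren1 and Ace had higher means and Ece1, Agt and Agtr1b lower means in nitrate treated mice, all short of the threshold. A probe was called at an unadjusted limma P value under 0.05 with a fold change above 1.2. It counted as detected where the scanner software both found the spot and set it well above background on 5 or more arrays of a group. The call of 1 of 9 detected probes, or 11.1%, stood beside 9.00% of all 23630 detected probes, of which 4.16% were higher and 4.85% lower. On the unadjusted limma P value alone 1 of 9 passed too, against 14.4% of all detected probes. Adjusted over all detected probes by the Benjamini-Hochberg method, no member passed, against 0.0127% of all, and the smallest adjusted limma P value of a member was 0.324. No detected member probe separated the groups without overlap, against 2.75% of all detected probes. The median log2 difference of the 9 probes was -0.09 and their median absolute difference 0.24, against 0.01 and 0.11 over all detected probes. The SD pooled within groups ran from 0.12 to 0.58 over the 9 probes, against a median of 0.18 over all detected probes.

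**Figure D1:**
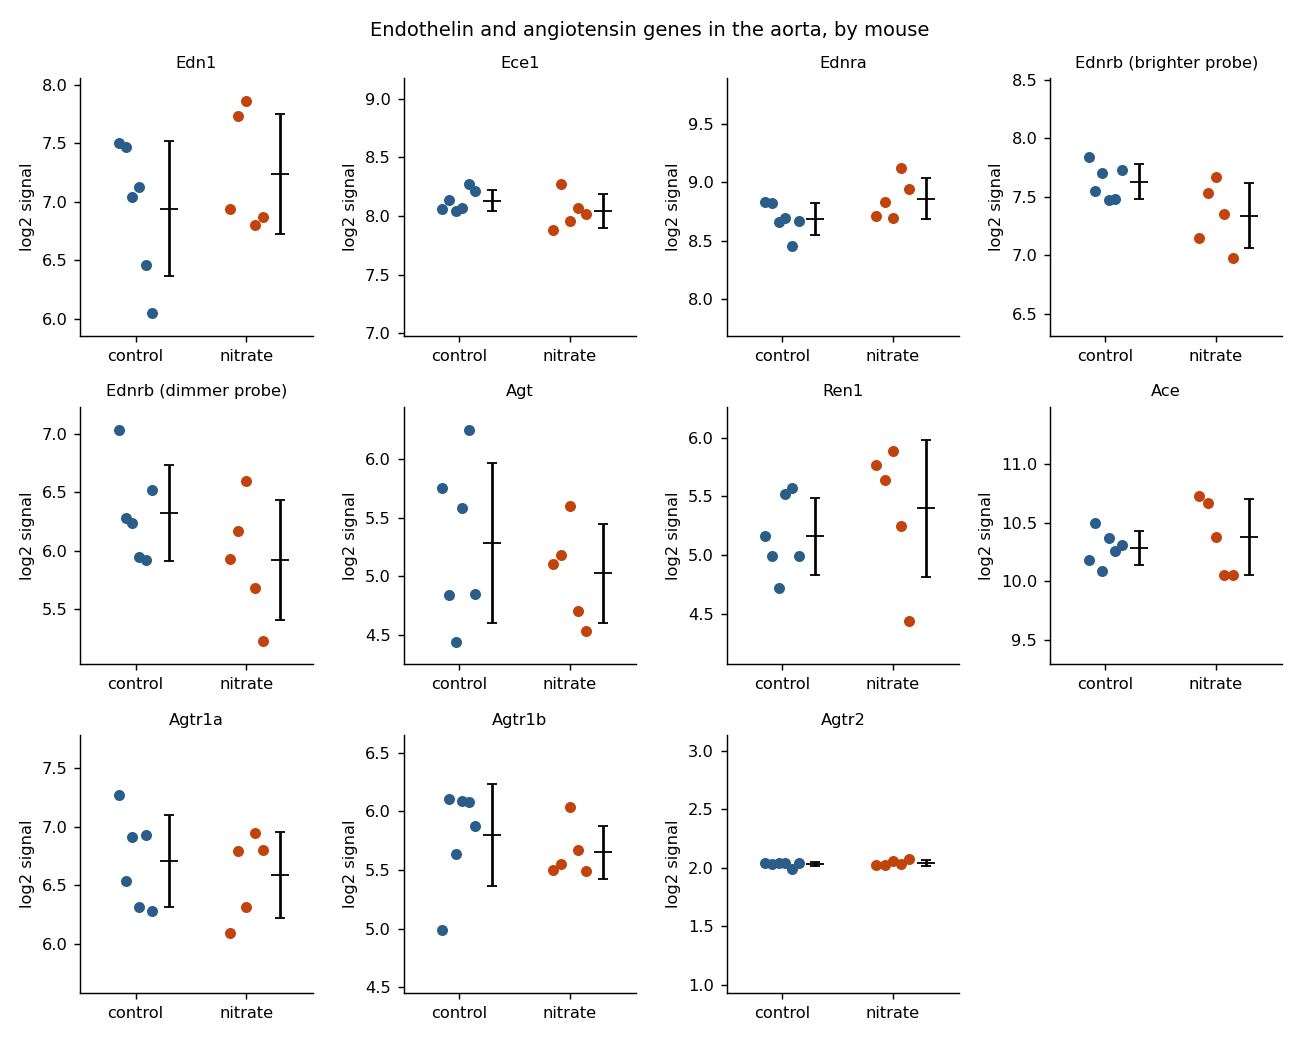
Log2 signal of each of the 11 probes (vertical axes, each spanning the same range of log2 units) in the 6 control mice (blue) and 5 nitrate treated mice (orange), with group mean and SD beside the points. The groups overlap for each of the detected probes, and Edn1, Agt and Ren1 vary widely within a group while Ece1 and Ednra lie close together.

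Signal depth differed more by slide than by group. The 75th percentile of the processed signal lay between 213 and 282 in controls and between 216 and 289 in nitrate treated mice. It was at least 282 on the 4 arrays of slide 3 and at most 258 on the others. Smooth muscle and endothelial markers were detected for 10 of 10 genes each. Summed over the list, endothelial signal spanned 17100 to 20200 in nitrate treated mice and 17400 to 20400 in controls, with no gene called. Adipocyte signal spanned 259000 to 341000 and 335000 to 469000, with 5 of 10 genes called lower, against 9.00% of all detected probes, and the other 5 lower without a call. Of the 5 calls, those of Lipe, Pnpla2 and Cfd were lost without nitrate 1. Lipe also lost its call without nitrate 4, and Cfd without nitrate 5 or control 3. Pnpla2 lost its call too without nitrate 2 or 3, or without control 1, 3 or 5. Without slide 3 the calls of Lipe and Cfd were lost. Smooth muscle signal spanned 705000 to 746000 in nitrate treated mice, where 9 of 10 genes were higher and 1, Lmod1, was called (0.31, limma P value of 0.0209), a call lost without nitrate 1, nitrate 2 or control 1. Control 1 stood apart with the lowest such signal, 556000 against 676000 to 735000 in the other controls. Summed striated muscle signal was highest in nitrate 4, at 53100 against 15400 to 17700 in the other nitrate treated mice, and in control 1, at 37300 against 8320 to 15400. Of the other lists, all 8 fibroblast and all 6 macrophage genes were higher with none called, no striated muscle gene was called, and 1 of 6 brown adipocyte, 1 of 2 lymphocyte and 1 of 5 Schwann and neural genes detected were called lower. The part of these cell types in the results was not tested, and values without single mice are given where they matter. Slide 1 held nitrate 1 and 2 with control 1 and 2, slide 2 held nitrate 3 with control 4 and 6, and slide 3 held nitrate 4 and 5 with control 3 and 5. All controls lay in slide column 3 and no nitrate array did, so that column and treatment cannot be told apart. In whole aorta, fewer cells of a type and less RNA per cell cannot be told apart either.

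The endothelin peptide gene Edn1 was measured by 10 spots per array of 1 probe at chr13:42403101-42403160 (mm9, plus strand). Its log2 signal was 6.94, 7.73, 7.86, 6.80 and 6.87 in nitrate treated mice 1 to 5. In the controls it ran from 6.05 through a median of 7.08 to 7.50. Nitrate 2 and 3 were the highest of all mice and control 5 and 6 the lowest. Of the remaining mice, nitrate 1, 4 and 5 lay below control 1 to 4, the opposite of the order of the means. The means were 7.24 ± 0.51 (SD, n = 5) and 6.94 ± 0.58 (SD, n = 6). The difference of 0.30 (SE 0.29, 95% interval -0.34 to 0.94) had a limma P value of 0.332. The two-sided exact permutation P value was 0.39, in a test over all divisions of the mice whose smallest possible P value is 0.00216.

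The repeated Edn1 spots show how closely a single array was read. Within 1 array the SD between the 8 to 10 unflagged spots was 0.05 to 0.21 log2 units, so the SE of an array's Edn1 value was 0.015 to 0.065. Between arrays of a group, each from another mouse, the pooled SD was 0.55. Spots of 1 array hold no variation from dissection, labelling, hybridization or slide, so mice and arrays cannot be told apart in that spread. As a ratio of nitrate treated to control mice, the interval above runs from 0.788 to 1.92. Single mice moved the difference, which was 0.12 without control 6, 0.14 without nitrate 3 and 0.17 without nitrate 2. It was 0.41 without nitrate 4 or control 1, 0.47 without slide 3 and 0.20 with normexp background correction. Without control 5 it was 0.20. With the replicate number as a block it was 0.12, which is the estimate without control 6, since no nitrate array has that number. Within slides it was -0.15, 1.27 and 0.08, and the large value came from the slide with 1 nitrate array and control 6.

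**Figure D2:**
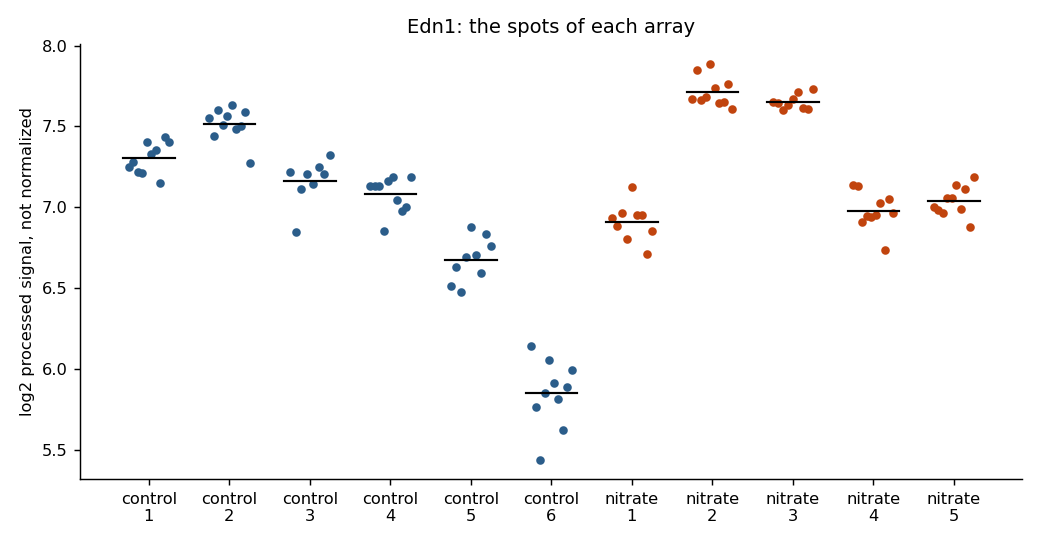
Unnormalized log2 processed signal (vertical axis) of the unflagged Edn1 spots on each array (horizontal axis), with the mean of the array as a line. Spots of an array lie together, with an SD of at most 0.206, while array means run from 5.85 to 7.72.

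Ece1, which encodes endothelin converting enzyme 1, had the smallest spread within groups of the detected members. Its probe lies at chr4:137519606-137519665 (mm9, plus strand), with log2 signals of 7.88, 8.27, 7.96, 8.07 and 8.02 in nitrate treated mice against 8.04 to 8.27, median 8.11, in controls. The nitrate values reached both lower than and as high as the controls. The difference was -0.09 (SE 0.08, 95% interval -0.26 to 0.08; limma P = 0.266; exact permutation P = 0.232), with a pooled SD between mice of 0.12. It was -0.15 without nitrate 2 and -0.05 without nitrate 1. As a ratio of nitrate treated to control mice the interval runs from 0.834 to 1.06, the narrowest of the detected members.

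Ednra, the gene of the endothelin A receptor, was read by a probe at chr8:80186985-80187044 (mm9, minus strand). Log2 signal was 8.71, 8.83, 8.69, 9.12 and 8.94 in nitrate treated mice and 8.45 to 8.83, median 8.68, in controls. All 5 nitrate treated mice were at or above the control mean of 8.69, and nitrate 4 and 5 were above every control. The difference of 0.17 (SE 0.10, 95% interval -0.04 to 0.38) did not pass, with a limma P value of 0.104 and an exact permutation P value of 0.121. It lay in slide 3, at 0.47, and was -0.06 and 0.01 in the other slides. Without nitrate 4 it was 0.10.

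Ednrb, the gene of the endothelin B receptor, had 2 probes. The brighter was at chr14:104214484-104214543 and the dimmer at chr14:104220870-104220929 (mm9, minus strand), beginning at bases 3288 and 1096 of the transcript named in the files. The 60-base sequence of the dimmer probe, 5′ to 3′, is shown because both probes bear on the Ednrb result and this one reads a part of the transcript far from the other.
Ednrb dimmer probe: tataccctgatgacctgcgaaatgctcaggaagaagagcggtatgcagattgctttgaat

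Log2 signal of the brighter probe was 7.15, 7.53, 7.67, 7.35 and 6.98 in nitrate treated mice. Controls ran from 7.47 to 7.84 with a median of 7.62. Nitrate 1, 4 and 5 were below every control, while nitrate 2 and 3 lay among the controls. The means were 7.34 ± 0.28 (SD, n = 5) and 7.63 ± 0.15 (SD, n = 6). The difference was -0.29 (SE 0.12, 95% interval -0.56 to -0.02; limma P = 0.0377, adjusted P = 0.324; exact permutation P = 0.0563). Ednrb is among the genes the study listed from these mice, so its direction is not independent evidence.

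The Ednrb call was a narrow one. With slide as a block it was lost, at -0.27 with a limma P value of 0.0547, and likewise with normexp background correction, at -0.20 with a limma P value of 0.0588. It was lost too without nitrate 1, 4 or 5, or without control 1, 3 or 6, over which the difference ran from -0.29 to -0.20, and direction was kept each time. Within slides it was -0.35, 0.07 and -0.42, so that the fall was seen in slides 1 and 3 and not in slide 2, which held a single nitrate array.

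Log2 signal of the dimmer Ednrb probe was 5.93, 6.17, 6.60, 5.68 and 5.23 in nitrate treated mice and 5.92 to 7.03, median 6.26, in controls. Nitrate 5 was the lowest and nitrate 3 the highest of their group on both probes, and the groups overlapped. The difference was -0.40 (SE 0.25, 95% interval -0.94 to 0.13; limma P = 0.129; exact permutation P = 0.182). It was -0.23 without nitrate 5, -0.26 without control 1 and, at a limma P value of 0.0313 that would pass the call rule, -0.57 without nitrate 3, and within slides it was -0.60, 0.36 and -0.63. It was -0.20 with normexp background correction and -0.21 without slide 3. Over the 11 mice the signals of both probes rose and fell together, with a Pearson r of 0.902 (permutation P = 0.0001) and a Spearman rho of 0.909 (permutation P = 0.00023). With nitrate 1 and 5 left out, r was 0.938, and it was 0.889 for deviations from the group means. The slides held at most 4 arrays each, too few for a value within a slide. The probes share each array's RNA and normalization, and the longest run of bases that an Ednrb probe shares with the Ednra probe is 7.

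The difference between both receptors within each array was also compared, a pair taken with the lower Ednrb values known. Ednrb minus Ednra was -1.56, -1.29, -1.02, -1.77 and -1.96 log2 units in nitrate treated mice 1 to 5. In controls it was -1.27 to -0.94. Nitrate 1, 2, 4 and 5 were below the lowest control, and only nitrate 3 lay among the controls. The mean was -1.52 ± 0.37 (SD, n = 5) against -1.06 ± 0.15 (SD, n = 6), a shift of -0.46 with a two-sided exact permutation P value of 0.013. Since the pair was chosen with these values known, the P value is not independent evidence that the receptors changed unequally.

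This shift held a permutation P value under 0.05 without each mouse in turn, between -0.58 and -0.35. It did not hold across slides. The shift was -0.29 in slide 1, 0.06 in slide 2 and -0.90 in slide 3, and with arrays exchanged only within slides it was -0.43 with an exact permutation P value of 0.0648. Without slide 3, whose arrays also stood together on the second principal component of all detected probes, it was -0.18 with an exact permutation P value of 0.314. With the dimmer Ednrb probe in place of the brighter, it was -0.57 with an exact permutation P value of 0.0909.

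**Figure D3:**
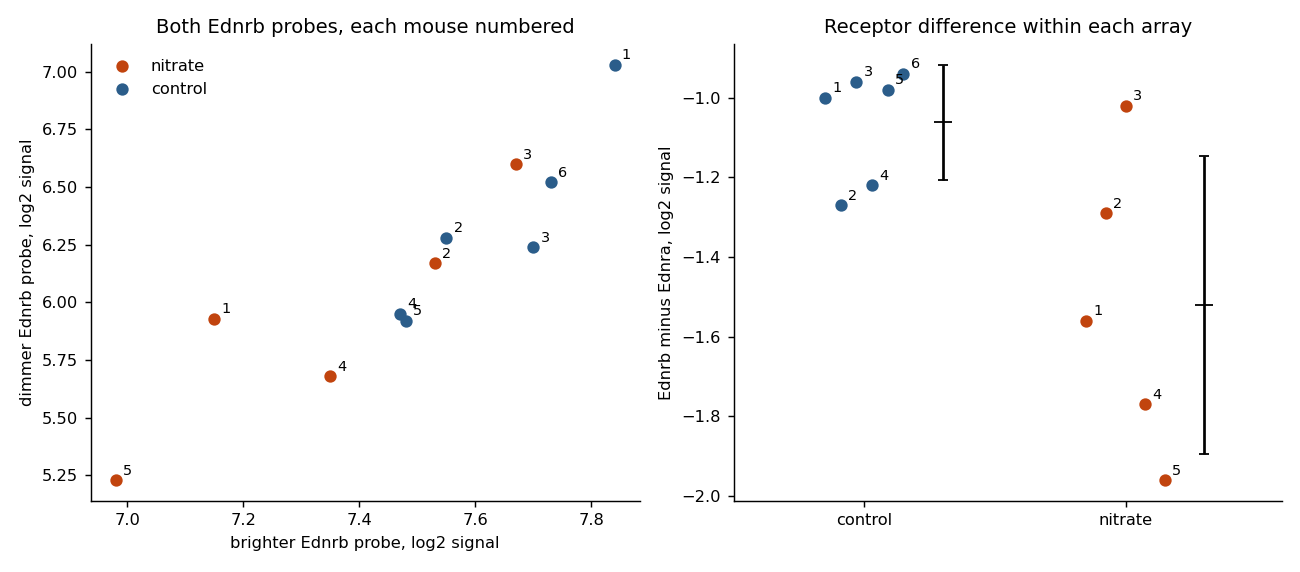
Left, log2 signal of the dimmer Ednrb probe (vertical axis) against that of the brighter (horizontal axis), each point 1 mouse with its replicate number (nitrate orange, control blue). Right, Ednrb minus Ednra in log2 units within each array, with group mean and SD. Nitrate 1, 4 and 5 lie lowest on the brighter probe, and 4 of 5 nitrate treated mice lie below the lowest control in the receptor difference.

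Among other endothelin genes, 1 of 7 was detected. This was Ece2, a further endothelin converting enzyme, at -0.16 (exact permutation P = 0.115). The peptides Edn2 and Edn3 and the peptidases Ecel1, Kel, Mme and Mmel1 did not pass the detection rule.

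Of the angiotensin genes, the precursor Agt was measured by a probe at chr8:127083142-127083201 (mm9, minus strand) and the enzyme gene Ren1 by one at chr1:135250782-135250841 (mm9, plus strand). Angiotensinogen comes mainly from the liver and renin from the kidney. Their 60-base probe sequences, 5′ to 3′, are shown because they define what was read as Agt and Ren1 in the aorta.
Agt probe: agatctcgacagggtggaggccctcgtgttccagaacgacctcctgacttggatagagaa
Ren1 probe: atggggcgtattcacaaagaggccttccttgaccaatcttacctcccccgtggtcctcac

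Agt log2 signal was 5.10, 5.18, 5.60, 4.70 and 4.53 in nitrate treated mice and 4.44 to 6.25, median 5.21, in controls. The controls alone spanned more than the nitrate treated mice, with control 3 the lowest and control 5 the highest of all. The difference of -0.26 (SE 0.31, 95% interval -0.94 to 0.41) had a limma P value of 0.41 and an exact permutation P value of 0.474. It rested on few mice, being -0.07 without control 5, -0.14 without nitrate 5, -0.17 without control 1 and -0.43 without control 3, was -0.12 with normexp background correction, and was -0.16, 0.38 and -0.73 within slides. The pooled SD between mice was 0.58.

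Ren1 log2 signal was 5.77, 5.64, 5.89, 5.25 and 4.44 in nitrate treated mice, and 4.72 to 5.57, median 5.08, in controls. Nitrate 1, 2 and 3 were above every control, and nitrate 5 was below every other mouse. The difference over all mice was 0.24 (SE 0.25, 95% interval -0.30 to 0.78; limma P = 0.352, adjusted P = 0.689; exact permutation P = 0.4). By slide it was 0.63, 0.64 and -0.30. Without nitrate 5 it was 0.48 with a limma P value of 0.0224. Without the 4 arrays of slide 3, a choice made after seeing the data, it was 0.60 with a limma P value of 0.00324. Both would pass the call rule. It was smaller without nitrate 3 (0.12), nitrate 1 (0.15) or control 3 (0.15) and with normexp background correction (0.11).

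Ace, whose enzyme makes angiotensin II and also breaks down bradykinin, was read at chr11:105850398-105850457 (mm9, plus strand). Log2 signals were 10.73, 10.67, 10.38, 10.05 and 10.05 in nitrate treated mice and 10.09 to 10.50, median 10.29, in controls. Nitrate 1 and 2 were above and nitrate 4 and 5 below every control. The means nonetheless differed by 0.09 only (SE 0.14, 95% interval -0.21 to 0.39; limma P = 0.528; exact permutation P = 0.554), and the SD was 0.33 in nitrate treated mice and 0.15 in controls. The order followed the slides, with 0.36 in slide 1, 0.04 in slide 2 and -0.13 in slide 3, and without nitrate 1 the difference was -0.00035. It was 0.02 without nitrate 2, 0.05 without control 3, and 0.17 without nitrate 4 or 5. Without slide 3 it was 0.25 with a limma P value of 0.0641.

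Of the AT1 receptor genes, Agtr1a did not pass the detection rule. Its probe at chr13:30474638-30474697 (mm9, plus strand) was above background on each array, but its spot was found on only 4 of the 5 nitrate and 4 of the 6 control arrays. Signals on the log2 scale were 6.09, 6.79, 6.31, 6.95 and 6.80 in nitrate treated mice and 6.28 to 7.27, median 6.73, in controls, with overlapping groups and a difference of -0.12 (SE 0.22; exact permutation P = 0.617). Without nitrate 1, the lowest mouse, the difference was 0.01.

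Agtr1b, at chr3:20213539-20213598 (mm9, minus strand), passed the detection rule through the controls alone, its spot being found on 6 of 6 control and 4 of 5 nitrate arrays. Nitrate treated mice had log2 signals of 5.50, 5.55, 6.04, 5.67 and 5.49, and controls 4.99 to 6.11 with a median of 5.98. Control 1 was the lowest of all mice, and the other 5 controls lay between 5.64 and 6.11. The difference was -0.15 (SE 0.20, 95% interval -0.57 to 0.28; limma P = 0.467; exact permutation P = 0.537). Without control 1 it was -0.31, without nitrate 3 -0.24, and without control 2, 4 or 5 between -0.08 and -0.09. Since the probe was admitted by the group where its mean is higher, its P values are not read as support. The probes of Agtr1a and Agtr1b share no run longer than 6 bases.

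The AT2 receptor gene Agtr2 was not well above background on any of the 11 arrays, at chrX:21065564-21065623 (mm9, plus strand). Its log2 signal, between 1.99 and 2.07, is that of background, and a difference in it says nothing of expression. Agtr2 mRNA was not detectable on these arrays.

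**Figure D4:**
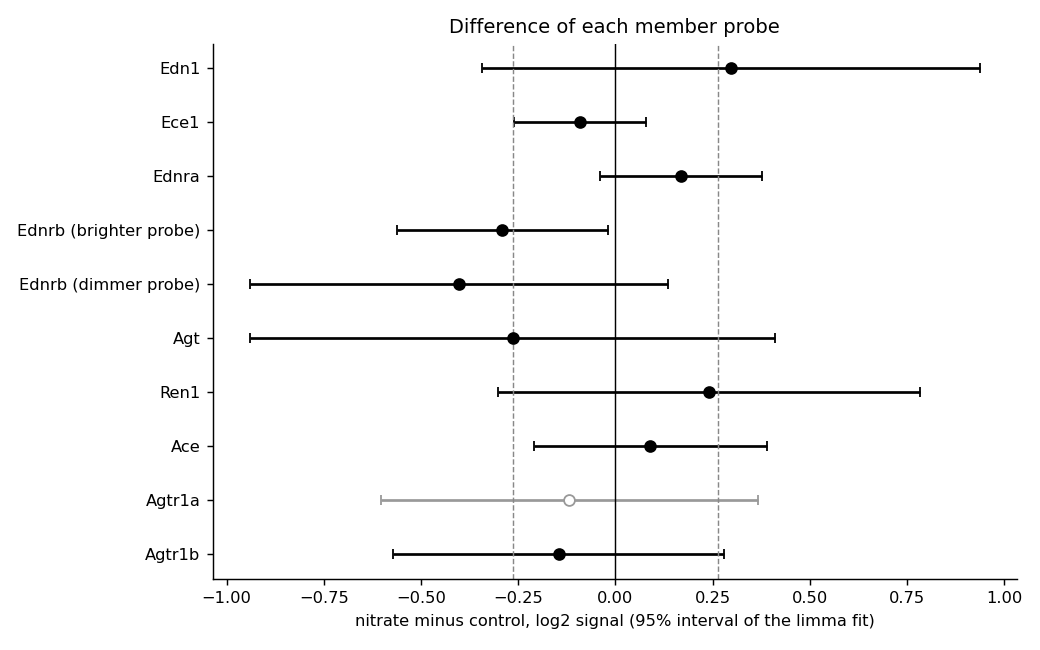
Difference of nitrate treated minus control mice in log2 signal (horizontal axis) for each member probe above background, with the 95% interval of the limma fit. Filled points were detected and the open grey one, Agtr1a, was not, and dashed lines mark a fold change of 1.2. Only the interval of the brighter Ednrb probe excludes 0.

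The spread within groups, which holds both mouse and array, differed among members. The SD pooled within groups was 0.12 for Ece1, 0.16 for Ednra, 0.22 for the brighter Ednrb probe and 0.24 for Ace. It was 0.36 for Agtr1b, 0.46 for Ren1 and the dimmer Ednrb probe, 0.55 for Edn1 and 0.58 for Agt. The median SD between spots of 1 array, which holds no variation between arrays, from probes spotted 10 times at a similar level, was lower for every detected member, from 0.06 at the level of Ace to 0.22 at that of Agt.

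The transcripts whose signal followed a member most closely over the 11 mice were noted as a description. Ace was closest to Tagln2 (Pearson r of 0.981) and Pdxdc1 (0.97). For Ednrb, Pstpip2 (0.909) and Sik2 (0.904) were the closest, and for Edn1, Fyb (0.91) and Clec7a (0.903). Ednra was closest to Slc16a1 (0.896) and Snx2 (0.891), Agtr1b to Eef1a1 (0.881) and Rrp1 (0.88), and Ren1 to Chpf2 (0.878) and Bmpr2 (0.86). Agt was closest to Nras (0.85) and Irx4 (0.844), and Ece1 to Utp14a (0.785) and Ifi27l2b (0.776). These are the highest of all detected named probes, and the points share array and slide.

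Of 22 other genes of the angiotensin system, 17 were detected, 1 of them was called lower and none higher. This is 5.88% of the genes detected, against 9.00% of all detected probes, and 2 of the 17 did not overlap between groups, against 2.75% of all. The median difference was -0.02. The gene called was Thop1, which encodes thimet oligopeptidase, an enzyme that can cut angiotensin I and bradykinin. Thop1 log2 signal was 7.54, 7.31, 7.31, 7.18 and 7.38 in nitrate treated mice and 7.56 to 7.86 in controls. Every nitrate treated mouse was below every control. The fall was 1.23-fold (-0.30, SE 0.08; limma P = 0.00271, adjusted P = 0.172; exact permutation P = 0.00216, the smallest the test can give). It was -0.32 in slides 1 and 3 and -0.28 in slide 2. The fold was under 1.2 without nitrate 4 (-0.26) or control 2 (-0.26) and with normexp background correction (-0.24), with limma P values of 0.00862, 0.00566 and 0.00212.

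Atp6ap2, the gene of the prorenin receptor and a subunit of the vacuolar proton pump, also separated the groups. Its log2 signal was 9.99, 10.09, 10.07, 10.04 and 10.03 in nitrate treated mice and 9.75 to 9.95 in controls. The difference of 0.16 (SE 0.06; limma P = 0.0148, adjusted P = 0.266; exact permutation P = 0.00216) is a 1.12-fold change and so under the call rule, and it was 0.21, 0.20 and 0.10 in the slides. Mas1, Mrgprd, Ctsg and Cyp11b2 were among those that did not pass the detection rule.

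Mast cells store proteases that form or degrade angiotensins, and 3 of their genes are among the 17. Cma1, which encodes a chymase, was at -0.23 (exact permutation P = 0.39), Mcpt4, another chymase, at -0.41 (exact permutation P = 0.206) and Cpa3, which encodes a carboxypeptidase, at -0.50 (exact permutation P = 0.106). Mcpt4 lay between 9.75 and 11.54 in nitrate treated mice and between 10.83 and 11.37 in controls, and the slides differed, with -1.20, -0.32 and 0.31. Single mice moved these values. Without nitrate 1, Cma1 was at -0.03, Mcpt4 at -0.19 and Cpa3 at -0.30. Without nitrate 4 they were at -0.40, -0.64 and -0.70, where Mcpt4 and Cpa3 had limma P values of 0.0114 and 0.00713 and would pass the call rule, as Cpa3 would without nitrate 5 (-0.62). Cpa3 would pass as well with slide as a block, at -0.53 with a limma P value of 0.0449. Without slide 3, Cpa3 was at -0.95 and Mcpt4 at -0.88, and both would pass. Of the 6 mast cell markers, which include these 3, 5 were detected. Kit and Tpsb2 were called lower, 40% of those detected against 9.00% of all detected probes. Kit was at -0.81 with a limma P value of 0.0062 and Tpsb2 at -0.40 with one of 0.0137. By slide Kit was at -1.65, -0.31 and -0.44, and Tpsb2 at -0.82, -0.28 and -0.03. Tpsb2 had 1 other detected probe, which was not counted here. Summed mast cell signal was 1520 to 4420 in nitrate treated mice and 3160 to 4270 in controls, and its part in these values was not tested.

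Downstream of the receptors, 22 of 25 genes of coupling proteins were detected, 1 was called higher and none lower, with a median difference of 0.05. The 4.55% called stood beside 9.00% of all detected probes. The gene called was also the only one of the 22 whose groups did not overlap, against 2.75% of all detected probes. Plcb4, which encodes a phospholipase C that Gq-coupled receptors activate, was 12.61, 12.69, 12.60, 12.39 and 12.51 in nitrate treated mice and 11.59 to 12.30 in controls. Every nitrate treated mouse was above every control. The rise was 1.36-fold (0.45, SE 0.12; limma P = 0.00335, adjusted P = 0.183; exact permutation P = 0.00216). Control 1 was the lowest, and the difference without each mouse in turn was 0.34 to 0.49. By slide it was 0.82, 0.38 and 0.17. Plcb4 too is among the genes the study listed from these mice, so its direction is not independent evidence. The other detected Plcb4 probes were at 0.25 and 0.24, with limma P values of 0.128 and 0.114, and were not called. Gna11, Rhoa and Rock1, which act in the same contractile signalling, were at 0.01, 0.05 and -0.01. Rgs2, an inhibitor of Gq signalling, was at -0.24 (exact permutation P = 0.357).

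No gene was called in the lists of the kinin system (4 of 8 genes detected) or the natriuretic peptide system (5 of 8). None was called either among genes known to respond to angiotensin II and endothelin-1 (9 of 12). Of all detected probes 9.00% were called, so that lists this short say little. The median differences of these lists were -0.33, 0.01 and -0.12. The kininogen genes Kng1 and Kng2, which encode the precursors of bradykinin, were at -0.34 (exact permutation P = 0.273) and -0.40 (exact permutation P = 0.21). The bradykinin receptor genes Bdkrb1 and Bdkrb2 did not pass the detection rule. Npr1, the receptor of atrial natriuretic peptide, was at 0.01 (exact permutation P = 0.916). Among responsive genes, Ctgf and Egr1 were at -0.04 and -0.17, with limma P values of 0.891 and 0.569, and Cyr61 at 0.45 (SE 0.49).

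**Figure D5:**
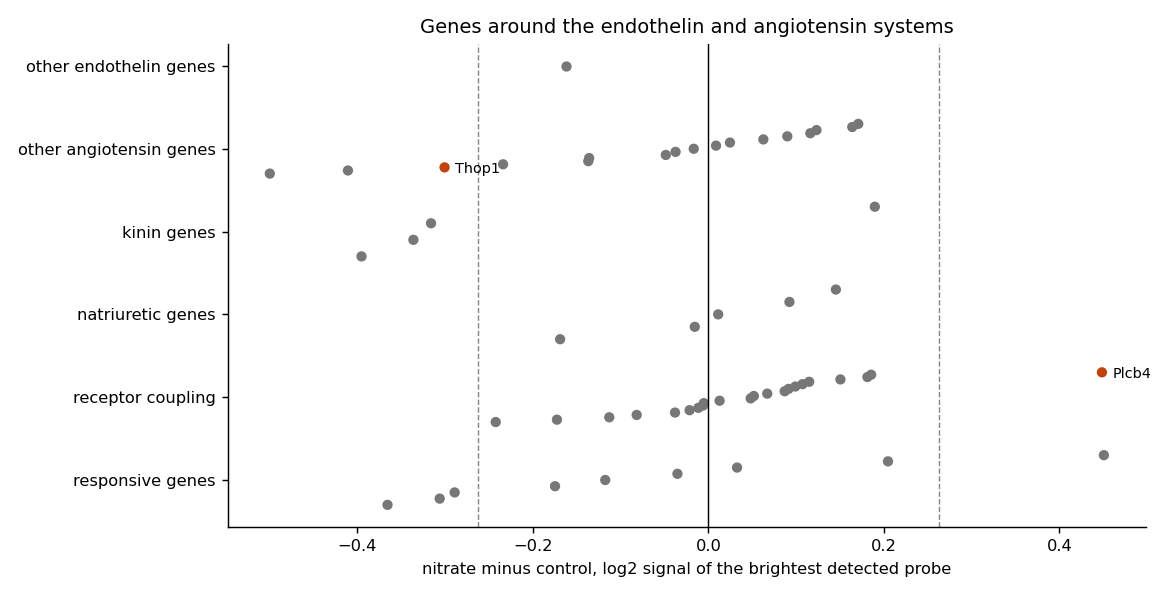
Difference of nitrate treated minus control mice in log2 signal (horizontal axis) for the brightest detected probe of each gene around the 10 members, by list. Orange points passed the call rule, which were Thop1 at -0.30 and Plcb4 at 0.45, and dashed lines mark a fold change of 1.2.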

How the data were processed

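The authors deposited, for each of the 11 arrays, spot intensities from Feature Extraction 10.7.1.1, corrected for background but not between arrays, and a table of quantile normalized log2 values centred on each probe's median. Processed signals below 1 were set to 1 before taking log2. Control spots and those flagged as outliers were dropped, replicate spots of a probe averaged, and the arrays quantile normalized. Groups were compared with limma 3.58.1 in R 4.3.3 (lmFit and eBayes) over all 11 arrays, and with two-sided exact permutation tests. Precision is limited by the number of arrays. The test was tried on simulated data.

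Named were the 10 members, called and example genes of hand-written lists, and the 2 transcripts most correlated with each member. The members and lists were chosen with earlier results of these data known. A list gene was represented by its brightest detected probe. Probes outside the detection rule took their values from a fit over all probes. Probe positions are those of the files (mm9). Mice were not paired by replicate number in the main comparison. Alternatives covered normalization, background correction, offset, detection, flagged spots, prior variance, slide, replicate number and each array left out. Slide 3 left out, and the dimmer Ednrb probe in the receptor difference, were chosen after seeing the data. The study states more nitrate arrays than the 5 analysed here.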

Additional observations from a re-analysis of the deposited data

Results flagged for a closer look

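Among 24 sets of mice examined, 1 held a mouse far from the others of its group, where chance gives about 1 in 20 sets, or 1.2. It was control 5 for Agtr2, whose log2 signal of 1.99 lay under the next lowest value of 2.03, a gap of 0.714 of the range of the controls. The Agtr2 probe was not well above background on any array.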

How the results depend on the processing

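The Ednrb difference of -0.29 (brighter probe) lost its call with normexp background correction (-0.202), slide as a block (-0.273), the mean of both probes (-0.347) and slide 3 left out (-0.196), and turned to 0.0685 within slide 2. Over the mice left out in turn it was -0.375 to -0.202. Correlations of same-numbered mice ran from -0.137 to 0.18. Numbers 1, 2 and 5 share a slide between the groups and numbers 3 and 4 do not, and these few values cannot tell whether the numbers pair arrays. With a replicate block Ednrb was at -0.27 with a limma P value of 0.0644. That estimate is the one without control 6, the only array of its number. The cause of these changes was not tested.

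Ednrb minus Ednra, at -0.459, lost its P value under 0.05 with normexp (-0.334), slide as a block (-0.431), the dimmer probe (-0.571) and slide 3 left out (-0.183), and lay between -0.584 and -0.35 over mice left out. Over alternatives fitted to all slides or without slide 3, other signs that turned were those of Ednra (-0.0129) and Agt (0.036) with slide 3 left out, Ace and Agtr1a without nitrate 1 (over mice left out in turn, -0.000354 to 0.172 and -0.21 to 0.00514), and Agtr2, whose signal was background, with normexp (-0.0897) and slide 3 left out (-0.00389). Within single slides, signs also turned for Edn1 (-0.151) and Ednra (-0.0589) in slide 1, the dimmer Ednrb probe (0.359), Agt (0.38), Agtr1a (0.00998) and Agtr1b (0.0569) in slide 2, Ren1 (-0.299) and Ace (-0.128) in slide 3, and Agtr2 (-0.0145) in slide 1.

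The count of 1 called member probe became 0 with normexp and slide as a block, and 0 to 2 without single mice. It was 0 as well with the replicate block, whose estimates are those without control 6. It was 2 without nitrate 3, when both Ednrb probes passed, and was made up of Ren1 without nitrate 5 and of Agtr1b, which passed the detection rule through the controls alone, without control 1. Over all probes, 2127 were called, against 1217 with normexp, 3224 without a detection filter, 2432 with the replicate block and 1595 to 2423 without single mice. Dim probes such as Agt, Ren1 and Agtr1b limit what a difference can show, and Agtr2 gives none.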

Other observations

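Besides the members, the array carries probes named for close relatives of renin and endothelin converting enzyme, chosen here after their values were seen. The probe named Ren2, a renin gene that some mouse strains carry beside Ren1 and C57BL/6 is known to lack, has no position in mm9 in the files. Its spot was above background on each of the 11 arrays but found on 4 in each group, which is under the detection rule. With nitrate the log2 signal was 6.98 ± 0.41 (SD, n = 5), and without it 6.33 ± 0.40 (SD, n = 6). The difference was 0.65 with a two-sided exact permutation P value of 0.0281. It shares no run longer than 6 bases with the Ren1 probe. A probe named LOC100044656 (chr1:135255035-135255094, mm9), near Ren1, was above background on 2 of the 11 arrays only. The probe LOC100047148 (chr4:137540403-137540462, mm9), near Ece1 and above background on 9, was at 0.24 with an exact permutation P value of 0.162. Which transcripts these probes bind was not tested.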
